A study of Mus musculus with 6 samples.

Results

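The genes described here encode chaperones of the endoplasmic reticulum (ER) and factors of the unfolded protein response. They were the 10 genes Hspa5, Hsp90b1, Calr, Sdf2l1, Dnajb9, Pdia4, Creld2, Manf, Herpud1 and Xbp1, chosen by name out of the 54532 genes of the deposited count table, and all 10 passed the filter on low counts. RNA-seq was performed on CD8T cells of mouse spleen, which were stimulated through CD3 and CD28 with beads and then kept for 24 hr in coculture with macrophages. By the paper's general coculture method, the macrophages of both groups had received IFN-γ (10 ng/mL, 12 hr). The same methods describe macrophages as peritoneal cells induced with thioglycolate medium. In the control group (3 samples) the macrophages were not treated with DB2313, and in the DB2313 group (3 samples) they were. DB2313 is an inhibitor of the transcription factor Spi1, and the methods give 14 nM for macrophages. The cells came from mice that the methods do not describe by strain or age, and were mixed at a ratio of 1 to 1, and 30 mice for macrophages and 20 for CD8T cells were used in all. GEO's labels name primary T cells and the same division by DB2313, but call the partner cells of the coculture DC cells, an abbreviation they do not spell out, and not macrophages as the methods do. Neither source states whether the 3 samples of a group were separate cultures, so p-values measure the spread between these samples, which may be technical.

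Proteins that are secreted or placed in membranes are folded in the ER with the help of lumenal chaperones. When unfolded protein accumulates, the sensors Ern1 (Ire1), Eif2ak3 (Perk) and Atf6 start the unfolded protein response, in which Ern1 splices the Xbp1 transcript into its active form and Xbp1 and Atf6 raise transcription of chaperones and degradation factors. T cells draw on this machinery when they are activated and secrete cytokines, and macrophages and dendritic cells carry it as well. Counts per gene do not separate the spliced from the unspliced Xbp1 transcript.

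The ER stress response element (ERSE), to which Atf6 and the factor NF-Y bind, is the best known promoter element of these genes, so its matches are printed. The windows reached from 250 bases before to 50 bases after the transcription start in RefSeq (GRCm38.p6), and were held for 9 of the 10 genes, all except Manf. Both strands were searched for ERSE (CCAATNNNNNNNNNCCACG), for ERSE-II (ATTGG, any base, CCACG) and for the element UPRE (TGACGTGG), whose reverse complement also holds the letters CCACG. ERSE was found in Hspa5, Hsp90b1, Calr and Creld2, ERSE-II in Herpud1, and UPRE in none of the 9, and no match overlapped another. Capitals mark the fixed letters of the motif, and each line runs 5′ to 3′ on the strand of the gene, so that a match on the opposite strand appears as its reverse complement.
Hspa5, chr2:34772010-34772058, plus strand, match 65 to 47 bases before the start: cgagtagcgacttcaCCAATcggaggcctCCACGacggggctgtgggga
Hsp90b1, chr10:86705623-86705671, minus strand, match 212 to 194 bases before the start: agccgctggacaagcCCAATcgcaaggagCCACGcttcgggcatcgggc
Hsp90b1, chr10:86705518-86705566, minus strand, opposite match 107 to 89 bases before the start: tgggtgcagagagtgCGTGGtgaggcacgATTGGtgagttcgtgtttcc
Calr, chr8:84847060-84847108, minus strand, opposite match 162 to 144 bases before the start: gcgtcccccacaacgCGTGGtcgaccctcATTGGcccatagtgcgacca
Creld2, chr15:88819505-88819553, plus strand, opposite match 126 to 108 bases before the start: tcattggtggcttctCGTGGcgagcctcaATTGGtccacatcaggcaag
Herpud1 (ERSE-II), chr8:94386362-94386402, plus strand, match 52 to 42 bases before the start: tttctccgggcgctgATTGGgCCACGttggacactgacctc
An exact ERSE was present in 39 of all 32851 promoter windows (0.119%), an exact ERSE-II in 12 (0.0365%) and a UPRE in 222 (0.676%). Among the windows of the other genes of the pathway that are listed further on, 51 of 65 genes had a window. ERSE was present in Canx, Derl3, Dnajc3, Ero1b (Ero1lb in the deposited table), Pdia6 and Syvn1. ERSE-II was present in Dnajb11, and UPRE in Txndc11, Txndc5 and Ube2j1. A match describes the letters of the window and not a bound site. The RefSeq start of Hspa5 differs from the deposited table, which places the gene from 34771970. The stretch printed for Hspa5 lies before the RefSeq start but inside the gene as placed in the deposited table.

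**Figure D1:**
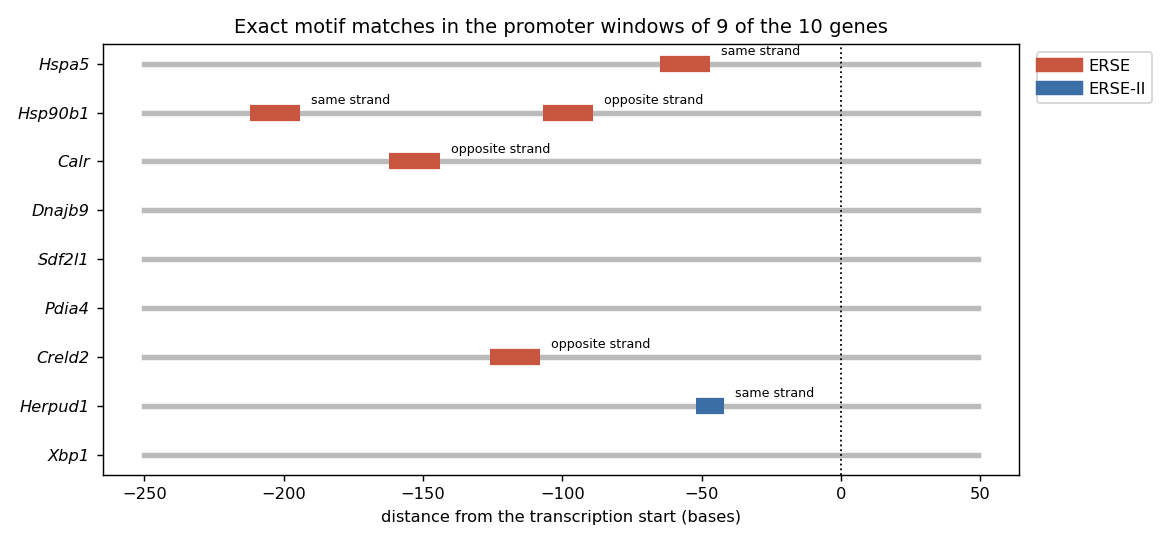
Positions of exact ERSE matches (red) and of the ERSE-II match (blue) in the promoter windows of 9 genes, with the distance from the RefSeq transcription start in bases on the horizontal axis and 1 grey line per gene. Hsp90b1 held 2 matches, while Dnajb9, Sdf2l1, Pdia4 and Xbp1 held none.

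Library totals ranged from 16611975 to 18596217 counts, and the 10 genes had between 476 and 17557 counts in each library. Differences were tested with edgeR's quasi-likelihood test over all 14883 genes that passed the filter, with Benjamini-Hochberg adjustment, and a gene was called at an adjusted p below 0.05. Positions of genes are those of the deposited table, which for all 10 genes match the GRCm38 coordinates of GENCODE M21. Levels are given as CPM (counts scaled to a common library total) after TMM, a normalization that assumes that most genes do not change. The RNA of the libraries was mixed. All 20 genes of a T cell list were higher with DB2313, with a summed level of 3413 to 3436 CPM in the control and 5138 to 5172 CPM in the DB2313 libraries, and Cd3e and Cd8a were counted in every library. All 16 genes of a macrophage list were lower, with summed levels of 11003 to 11303 and 3613 to 3746 CPM. Of 8 dendritic cell genes, 7 were tested, 1 was higher and 5 were lower (summed levels of 226.6 to 234.7 and 116.4 to 120.2 CPM), and Siglech was at 0. Of 11 B and plasma cell genes, 10 were tested, 6 were higher and 1 was lower (373.4 to 376.9 and 485.8 to 502.2 CPM). All 5 granule genes of myeloid progenitors were higher (495.1 to 518.2 and 959.9 to 979.9 CPM). The part of these differences in the results was not tested, and fewer cells of a type cannot be told apart from less RNA per cell in bulk RNA.

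The 10 genes did not move as a block. Manf and Hsp90b1 were higher in the DB2313 group and Calr, Xbp1 and Sdf2l1 were lower, while Hspa5, Pdia4, Creld2, Herpud1 and Dnajb9 did not pass the test. All changes were small: the largest in size was 0.32 on the log2 scale, in Manf, and none of the 10 exceeded an absolute log2 fold change of 1, which 6.68% of all tested genes did together with the adjusted p. The 2 higher and 3 lower genes stand beside 20.8% of all tested genes called higher and 24.6% called lower, so the share of these genes that was called, 5 of 10, was near the 45.4% of all genes. The median log2 fold change of the 10 genes was -0.053, against 0.020 over all tested genes. Their summed share of the counts was 0.284% ± 0.00175 without and 0.296% ± 0.00152 with DB2313 (SD, n = 3 each), but their summed TMM-scaled level was 2932 ± 15.5 and 2869 ± 12.2 CPM (SD, n = 3 each), so that the sum was higher or lower with DB2313 depending on the scaling.

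**Figure D2:**
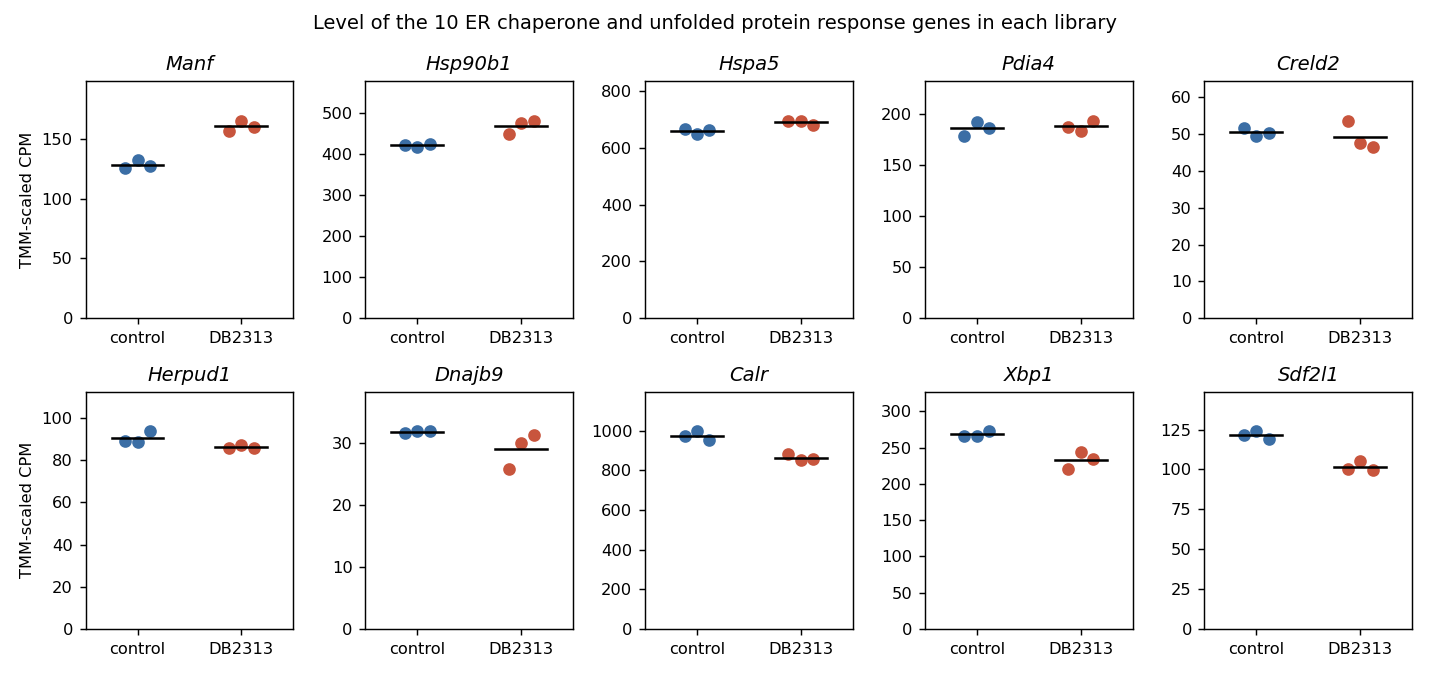
TMM-scaled CPM (vertical axes, from 0) of the 10 genes in the 3 control (blue) and the 3 DB2313 libraries (red), 1 panel per gene, with points for libraries and a bar at the group mean. The groups do not overlap in 8 of the 10 genes, and in Manf the DB2313 libraries lie between 157.1 and 165.5 CPM above control libraries of 125.5 to 132.7 CPM.

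Among the general chaperones of the ER lumen, Hspa5 (ENSMUSG00000026864, chr2:34771970-34777547, plus strand), known as BiP or Grp78, binds unfolded chains and holds the sensors inactive. Its level was 666.4, 649.7 and 664.0 CPM in the control libraries and 695.5, 692.7 and 679.5 CPM in the DB2313 libraries. The groups did not overlap, but the log2 fold change was 0.062 (standard error 0.031), which did not pass edgeR's test (adjusted p = 0.102). It passed when libraries were scaled by library size (log2 fold change 0.16) or by the upper quartile (0.13), and was called lower when they were scaled to the 20 T cell genes (-0.53). Hsp90b1 (ENSMUSG00000020048, chr10:86690209-86705509, minus strand), known as Grp94, folds a narrower set of clients that includes integrins and Toll-like receptors. Its level was 420.8, 416.6 and 425.3 CPM in the control libraries and 449.5, 474.7 and 481.2 CPM in the DB2313 libraries. The groups did not overlap, all DB2313 libraries being higher, with a log2 fold change of 0.15 (standard error 0.034, adjusted p = 0.000617 from edgeR), and the direction turned when libraries were scaled to the T cell genes (-0.43). Hsp90b1 shares 415 of its 4032 exonic bases with the pseudogene 1810014B01Rik on the opposite strand, which had 52 to 104 counts in a library. On the same strand it shares 84 bases with Gm15344, which had 10 to 26 counts, and 133 bases with Gm25745, which had 0 counts in all libraries.

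Calr (ENSMUSG00000003814, chr8:84841850-84846934, minus strand) encodes calreticulin, a calcium-binding chaperone of glycoproteins that also belongs to the peptide-loading complex of MHC class I. It was the most abundant of the 10 genes, at 971.7, 997.8 and 952.4 CPM in the control libraries and 882.0, 851.5 and 856.4 CPM in the DB2313 libraries. Calr fell, with a log2 fold change of -0.17 (standard error 0.031, adjusted p = 6.23e-05 from edgeR) and no overlap between the groups. Sdf2l1 (ENSMUSG00000022769, chr16:17130138-17132383, minus strand), which keeps substrates of Hspa5 from aggregating, had the largest fall. It went from 121.8, 124.0 and 119.4 CPM to 100.5, 105.3 and 99.7 CPM, a log2 fold change of -0.26 (standard error 0.040, adjusted p = 1.24e-05 from edgeR). Dnajb9 (ENSMUSG00000014905, chr12:44205559-44210326, minus strand), or ERdj4, a J protein that recruits Hspa5 to the sensor Ern1 and to misfolded proteins, was at 31.5, 31.9 and 31.9 CPM in the control libraries. In the DB2313 libraries it was at 25.7, 29.97 and 31.4 CPM, with most of the difference in replicate 1. Its log2 fold change of -0.13 (standard error 0.077) did not pass (adjusted p = 0.177 from edgeR), and ranged from -0.19 to -0.051 when each library was left out in turn.

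Manf and the redox proteins differed from each other. Manf (ENSMUSG00000032575, chr9:106838312-106891979, minus strand) encodes a small protein that binds Hspa5, is retained in the ER and is released when calcium there is low, and it had the largest change of the 10. Its level was 125.5, 132.7 and 127.4 CPM in the control libraries and 157.1, 165.5 and 159.7 CPM in the DB2313 libraries. Manf rose by 0.32 on the log2 scale (standard error 0.039, adjusted p = 2.41e-07 from edgeR), which was larger in size than that of 62.5% of all tested genes. Manf was also called higher when libraries were scaled by their size (0.42) or the upper quartile (0.39), and lower when libraries were scaled to the T cell genes (-0.27). In GENCODE M21, 146 of the 3524 exonic bases of Manf are shared with Dcaf1 and 166 with 4930524O07Rik, both on the opposite strand, and 14 with Rbm15b on the same strand. Dcaf1 and Rbm15b had log2 fold changes of 0.17 and 0.14, and how reads in shared bases were assigned is not given in the sources used here.

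Pdia4 (ENSMUSG00000025823, chr6:47796141-47813430, minus strand), a protein disulfide isomerase, was at 178.1, 192.2 and 186.0 CPM in the control libraries and 186.7, 183.1 and 193.2 CPM in the DB2313 libraries. The groups overlapped, with a log2 fold change of 0.018 (standard error 0.038, adjusted p = 0.733 from edgeR), but Pdia4 was called higher with library size scaling (0.11) and lower with T cell marker scaling (-0.57). Its sign also turned when control replicate 1 (-0.010) or DB2313 replicate 3 (-0.0021) was left out. Creld2 (ENSMUSG00000023272, chr15:88819646-88826683, plus strand), a disulfide isomerase-like protein that is induced by ER stress, was at 51.7, 49.6 and 50.1 CPM in the control libraries and 53.6, 47.6 and 46.4 CPM in the DB2313 libraries. Its groups overlapped as well (log2 fold change -0.036, standard error 0.063, adjusted p = 0.680 from edgeR). Herpud1 (ENSMUSG00000031770, chr8:94386438-94395377, plus strand), a membrane protein of the ER that takes part in the degradation of misfolded proteins, was at 89.3, 88.8 and 93.7 CPM and at 85.8, 87.1 and 85.6 CPM. Every DB2313 library of Herpud1 lay below every control library, but the log2 fold change of -0.071 (standard error 0.044) did not pass (adjusted p = 0.194 from edgeR). Its direction turned with library size scaling (0.023), and it was at -0.0075 with the upper quartile.

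Xbp1 (ENSMUSG00000020484, chr11:5520659-5525893, plus strand), the transcription factor of the Ern1 branch, was at 266.4, 266.6 and 272.5 CPM in the control libraries and 220.5, 243.7 and 234.5 CPM in the DB2313 libraries. Xbp1 fell, with a log2 fold change of -0.21 (standard error 0.038, adjusted p = 8.54e-05 from edgeR) and no overlap between the groups. Calr, Sdf2l1 and Xbp1 were also called lower when libraries were scaled by their size (-0.080, -0.16 and -0.11) or by the upper quartile. Scaling to the T cell genes shifted all tested genes by a median of -0.59 and called 11516 of them lower, among them all 10 genes, so a lower call there does not set a gene apart. The groups did not overlap in 8 of the 10 genes, beside 53.1% of all tested genes. In 3 of them the DB2313 group was higher (25.6% of all tested genes) and in 5 lower (27.5%). With 3 samples against 3, an exact permutation test of a single gene cannot give a p below 0.1.

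**Figure D3:**
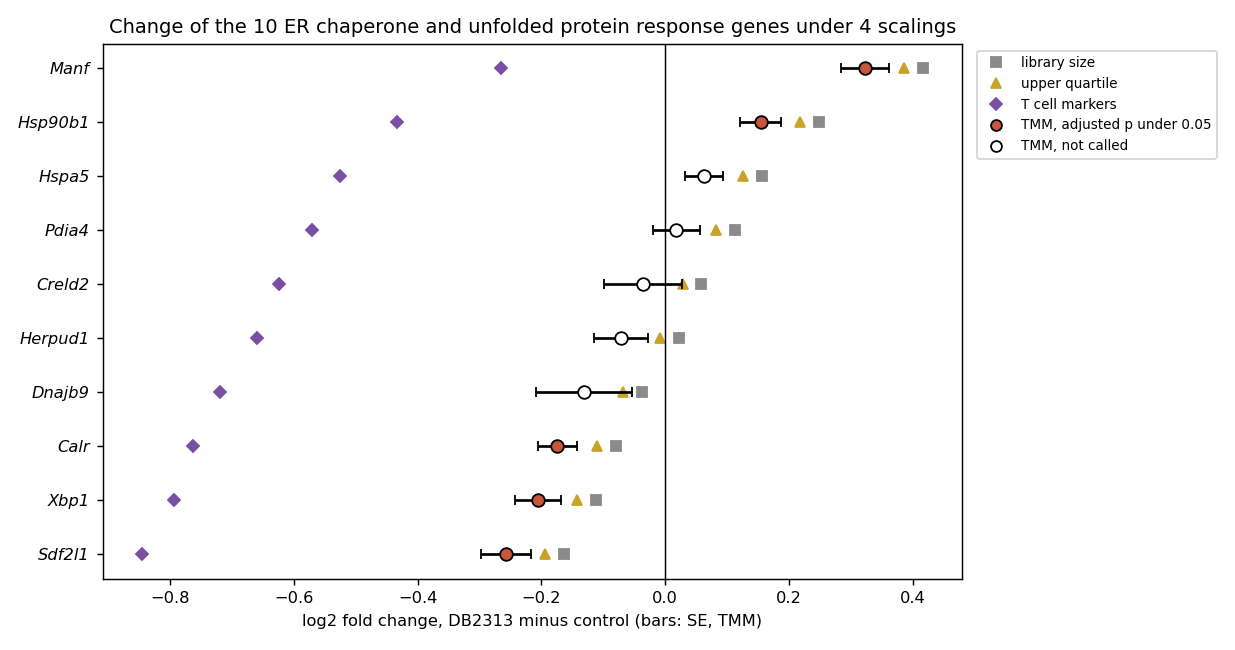
Log2 fold change of each gene, DB2313 minus control (horizontal axis), with TMM (circles, filled where the adjusted p is below 0.05, bars for the standard error), library size (squares), upper quartile (triangles) and T cell marker scaling (diamonds). Calr, Xbp1 and Sdf2l1 lie below 0 and Manf and Hsp90b1 above 0 under the first 3 scalings, while T cell marker scaling, which shifted all tested genes by a median of -0.59, places all 10 genes below 0 (Manf at -0.27 and Hsp90b1 at -0.43).

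Ratios of counts between these genes within a library do not depend on how libraries are scaled, and show the unequal changes directly. The pairs were chosen after the values were seen, so the ratios restate the changes above and add no separate support. For each 1 count of Sdf2l1 there were 1.03, 1.07 and 1.07 counts of Manf in the control libraries and 1.56, 1.57 and 1.60 in the DB2313 libraries, a difference of 0.58 on the log2 scale. The ratio of Manf to Calr was 0.132 ± 0.00249 in control and 0.186 ± 0.00812 in DB2313 libraries (SD, n = 3 each). The ratio of Hsp90b1 to Calr was 0.432 ± 0.0145 and 0.543 ± 0.0290, and that of Hspa5 to Calr 0.678 ± 0.0240 and 0.799 ± 0.0133 (SD, n = 3 each). In these 4 ratios the groups did not overlap and DB2313 was higher. Of 8 ratios computed, that of Sdf2l1 to Dnajb9 went the other way, with 3.83 ± 0.0771 in control and 3.53 ± 0.363 in DB2313 libraries (SD, n = 3 each), and its groups overlapped.

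Levels per length, in RPKM (CPM per kilobase of gene length, from TMM-scaled CPM and the length column of the table), set the order of the 10 genes. In the control group Calr led with 338.2 ± 7.90 RPKM, followed by Hspa5 with 156.1 ± 2.13, Sdf2l1 with 109.8 ± 2.07 and Hsp90b1 with 104.4 ± 1.08 RPKM (SD, n = 3 each). Xbp1 (82.7 ± 1.06 RPKM) and Pdia4 (77.3 ± 2.94) came next, then Herpud1 (38.8 ± 1.16), Creld2 (36.9 ± 0.810) and Manf (36.5 ± 1.07), and Dnajb9 was last with 12.5 ± 0.0794 RPKM (SD, n = 3 each). Of the neighbours in this order, only Creld2 and Manf overlapped between their libraries. In the DB2313 group the order changed at 3 places. Hsp90b1 (116.2 ± 4.16 RPKM) lay above Sdf2l1 (91.9 ± 2.77), Pdia4 (78.2 ± 2.12) above Xbp1 (71.7 ± 3.60), and Manf (45.6 ± 1.22) above Herpud1 (36.9 ± 0.353) and Creld2 (36.0 ± 2.83), the only neighbours there whose libraries overlapped (SD, n = 3 each).

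**Figure D4:**
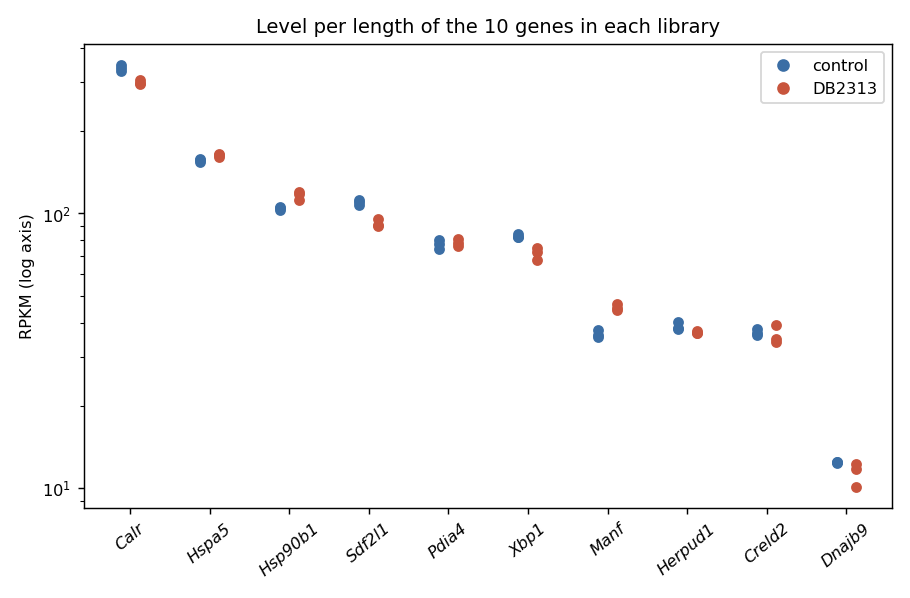
RPKM of the 10 genes on a log axis in each control (blue) and DB2313 library (red), ordered by their mean over all 6 libraries. Levels span from Dnajb9, at 10.1 to 12.5 RPKM, to Calr, at 295.6 to 346.5 RPKM, and the spread between libraries of a group is small beside the distance between most genes.

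The promoter elements printed above were present in genes of either direction. Of the 4 genes with an ERSE, Hsp90b1 was higher, Calr was lower, and Hspa5 and Creld2 did not pass the test. Herpud1, with the ERSE-II, did not pass either. Among the genes of known window without either element, Xbp1 and Sdf2l1 were lower, and Dnajb9 and Pdia4 did not pass. Over the 6 libraries, protein-coding genes whose log2 CPM was among the most like that of Hspa5 were Mycbp, Gpn3, Gpank1 and Ppp1r13b, with Pearson's r from 0.992 to 0.996 among 9321 genes of at least 10 CPM. These correlations include the difference between the groups and describe only these 6 libraries.

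The rest of the pathway was followed in 65 further genes, grouped by role. Of these, 8 were higher and 22 were lower in the DB2313 group, with a median log2 fold change of -0.067 (beside 20.8% of all tested genes higher and 24.6% lower). The same shares of all tested genes stand beside the counts of each list below. With library size scaling 19 were higher and 14 lower (median 0.027), and over all tested genes the split went from 3096 higher and 3666 lower with TMM to 4932 and 2852.

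The list for the sensors and the activation of Atf6 held Ern1, Eif2ak3, Atf6, Atf6b, Mbtps1, Mbtps2 and Creb3l2. Of these 7 genes, 4 were lower and none was higher by edgeR's test, beside 24.6% of all tested genes lower. The 4 were Ern1, Eif2ak3, Atf6 and its paralog Atf6b. Each of the 3 sensors of the response was thus called lower with TMM, as Xbp1 was, but a joint change was not tested. With library size and upper quartile scaling, Ern1 was still called lower (-0.27 and -0.30). Values under other scalings are not given here for Atf6 (-0.34 with TMM, standard error 0.063) and Eif2ak3 (-0.23, standard error 0.062). Library size scaling moved all tested genes by a median of 0.094, so the call for Eif2ak3 may depend on TMM. Ern1 was at 39.3, 37.1 and 35.6 CPM in the control libraries and 31.3, 27.0 and 28.9 CPM in the DB2313 libraries (log2 fold change -0.36, standard error 0.073). Atf6 went from 48.0 ± 1.38 to 37.9 ± 1.74 CPM and Eif2ak3 from 44.7 ± 1.29 to 38.2 ± 0.768 CPM (SD, n = 3 each). Atf6b, the most abundant of the list per length, had a log2 fold change of -0.12 and overlapping groups. It was not called with library size or upper quartile scaling, with DESeq2 or with the replicate block. Nor was Atf6b called when any of control replicate 2, control replicate 3, DB2313 replicate 1 or DB2313 replicate 3 was left out. Over all 6 fits that each left out 1 sample, its log2 fold change ranged from -0.16 to -0.087.

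Of 7 genes downstream of Perk, 4 were higher and 2 were lower, with a median log2 fold change of 0.31 (-0.28 with T cell marker scaling). Atf4, whose translation Perk promotes, was the most abundant of them per length and went from 212.6, 214.3 and 215.9 CPM in the control libraries to 279.5, 254.5 and 262.1 CPM in the DB2313 libraries (log2 fold change 0.31, standard error 0.037). Its direction turned with T cell marker scaling, to -0.28. Ddit3 (Chop), a factor linked to cell death under ER stress, went from 35.5 ± 2.23 to 48.9 ± 1.26 CPM, and the pseudokinase Trib3 from 13.4 ± 0.655 to 24.95 ± 1.57 CPM (SD, n = 3 each). The log2 fold change of Ddit3, 0.46, was smaller in size than the median shift of all tested genes with T cell marker scaling (-0.59). The value of Ddit3 with that scaling is not given here. Chac1, a glutathione-degrading enzyme, had the largest rise of the list, with a log2 fold change of 0.97 (standard error 0.19) at 2.78 ± 0.339 and 5.47 ± 0.541 CPM (SD, n = 3 each). Atf4 and its targets also respond to other stresses than that of the ER. Ppp1r15a and Ppp1r15b, which guide the phosphatase that ends this branch, were lower, both with a log2 fold change of -0.23. Eif2ak3, Atf6, Ddit3, Trib3 and Ppp1r15a were singled out after their values were seen.

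Among 10 further lumenal chaperones and cochaperones, 3 were lower and none was higher by edgeR's test, with a median log2 fold change of -0.072 that turned to 0.023 with library size scaling. Canx, which encodes calnexin, the membrane-bound relative of calreticulin, was at 417.8, 413.1 and 403.9 CPM in the control libraries and 349.1, 381.1 and 367.6 CPM in the DB2313 libraries, a log2 fold change of -0.17 (standard error 0.036) equal to that of Calr at 2 decimals. The call for Canx was lost with library size scaling (-0.076). Dnajc10, a reductase of the ER lumen, had the largest fall of the list, at -0.37 (standard error 0.041), and Dnajc1, named after its values were seen, was the other called gene. Of 14 disulfide and proline isomerases, 1 was higher and 5 were lower, with a median of -0.065 that turned to 0.029 with library size scaling. Pdia3, the isomerase that works with calreticulin and calnexin, was the most abundant per length, with a log2 fold change of -0.091 (standard error 0.031) that turned to 0.0035 with library size scaling, and its call was also lost with the upper quartile, with the replicate block and on leaving out replicate 1 or 3 of the control or replicate 3 of the DB2313 group (-0.083, -0.083 and -0.079). Ero1lb, an oxidase that recharges the isomerases, fell most (-0.62, standard error 0.067), and Fkbp11 rose by 0.84 (standard error 0.21) from a level of 2.58 ± 0.599 CPM (SD, n = 3).

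Of 14 genes of ER-associated degradation, 1 was higher and 5 were lower, with a median of -0.075 that turned to 0.019 with library size scaling. Sel1l, the partner of the ubiquitin ligase Syvn1, fell most, at -0.37 (standard error 0.042), and Os9, a lectin that hands over misfolded glycoproteins, was the most abundant per length with -0.11 (standard error 0.035). The call for Os9 was lost with library size (-0.021) and upper quartile scaling (-0.051) and when control replicate 2 (-0.11) or DB2313 replicate 3 (-0.088) was left out. Selenos was the only higher gene of the list, at 0.15 (standard error 0.053), and -0.44 with T cell marker scaling. Its call was lost with DESeq2 and without control replicate 1, control replicate 2, DB2313 replicate 2 or DB2313 replicate 3 (0.10, 0.15, 0.15 and 0.14). Of 13 genes for entry into the ER, 2 were higher and 3 were lower, with a median of -0.027 that turned to 0.067 with library size and 0.037 with upper quartile scaling. Ssr2, a subunit of the translocon-associated complex, rose by 0.30 and was at -0.29 with T cell marker scaling. Sec61g, a subunit of the translocation channel, fell by 0.59, and Sec61b, the most abundant of the list per length, by 0.46.

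**Figure D5:**
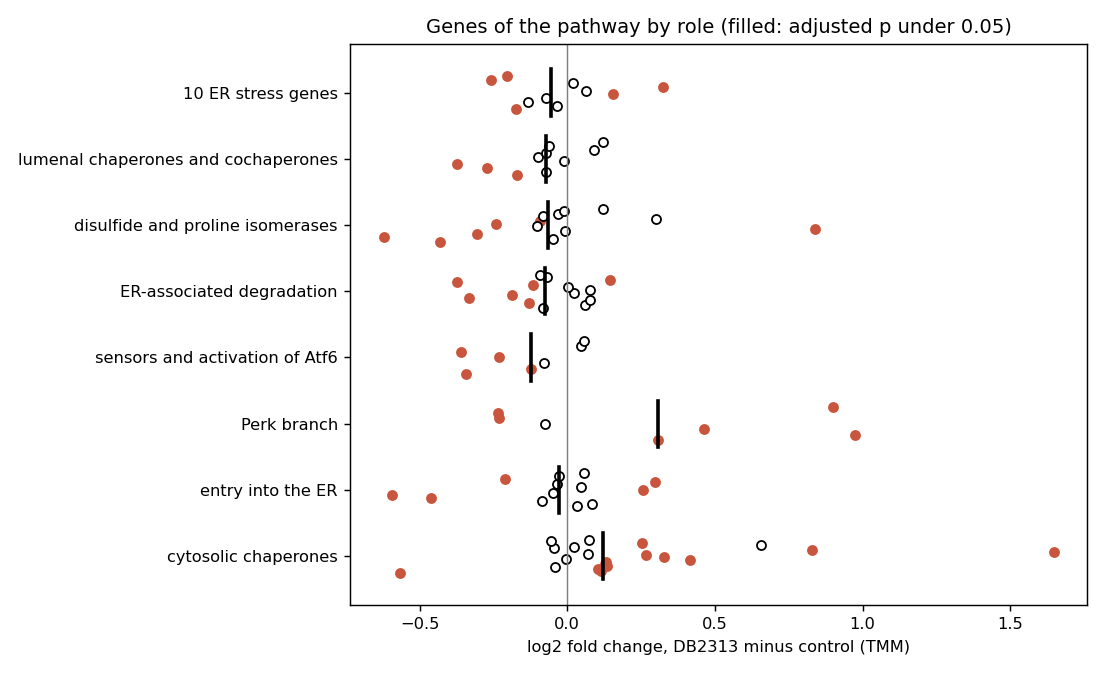
Log2 fold change, DB2313 minus control with TMM, of the 10 genes and of 6 lists of the pathway and 1 list of cytosolic chaperones, with 1 point per gene, filled where the adjusted p is below 0.05, and a bar at the median of each list. The Perk branch (median 0.31) and the cytosolic chaperones (0.12) have medians above 0, while the other lists have medians from -0.12 to -0.027.

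Chaperones of the cytosol were set beside those of the ER. Of 20 genes, 11 were higher and 1 was lower in the DB2313 group, beside 20.8% of all tested genes higher and 24.6% lower. Their median log2 fold change was 0.12 (0.020 over all tested genes), and -0.47 with T cell marker scaling. Hspa1a, an inducible chaperone, had the largest rise at 1.65 (standard error 0.30), but with 0.930 ± 0.253 and 2.93 ± 0.297 CPM (SD, n = 3 each) and a near-identical copy, Hspa1b, with which it can share reads. Bag3, which links such chaperones to autophagy, was the only lower gene of the list, at -0.57 (standard error 0.10). Hsp90ab1, the most abundant per length, was at 0.069 (standard error 0.028) and did not pass (adjusted p = 0.0526 from edgeR). It was called higher with library size and upper quartile scaling, DESeq2, no filter, protein-coding genes only and without DB2313 replicate 1, and lower with T cell marker scaling. The difference between the lists was not tested.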

How the data were processed

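RNA of 6 samples was sequenced. The authors aligned the reads and made raw counts per gene, which were deposited without normalization. The paper names LifeScope for this step, while the submitters' processing notes name CASAVA 1.8, HISAT2 2.0.5 and featureCounts 1.5.0-p3, so the sources conflict. Build and strandedness are not given in the sources used here, and all 10 genes had their GRCm38 coordinates of GENCODE M21. Columns were matched to samples by their labels. Groups came from the treatment given for each sample, since the general protocol text names DB2313 for all 6.

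Counts were tested with edgeR 4.0.16 in R 4.3.3 (filterByExpr, TMM, glmQLFit, glmQLFTest, Benjamini-Hochberg adjustment over 14883 genes), and the scripts were tested on simulated data. Standard errors came from the fitted change and its test. RPKM used the length column of the table, and Ddit3 the row of its 2 with counts. The genes and lists were chosen with earlier results of these data known. Besides all 10 genes, those named by rule are the largest called rise and fall and the most abundant gene per length of each list, and the 5 genes most like Hspa5, of which 1 is not reported here. Eif2ak3, Atf6, Ddit3, Trib3, Ppp1r15a and Dnajc1 fall outside this rule and were chosen after their values were seen. Replicates differed by more than sampling noise (chi-square per gene of 2.48 to 3.81 within groups). Alternatives were DESeq2 1.42.0, 3 scalings, 2 filters, protein-coding genes only, a replicate block, a threshold on the fold change and leaving out each sample.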

Additional observations from a re-analysis of the deposited data

How the results depend on the processing

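Calr, Sdf2l1 and Xbp1 were called lower, and Manf and Hsp90b1 higher, under DESeq2, both other filters, protein-coding genes only, the replicate block and each fit that left out 1 sample. Scaling to the 20 T cell genes moved the change of all genes by a median shift of -0.59 on the log2 scale, from which changes under it should be read, and then 0 of the 10 genes were higher and 10 lower, with a median of -0.64 (all tested genes -0.57). Among the 10 genes and those named by rule, the changes that turned there were Hspa5 (-0.53), Hsp90b1 (-0.43), Pdia4 (-0.57), Manf (-0.27), Selenos (-0.44), Atf4 (-0.28), Ssr2 (-0.29) and Hsp90ab1 (-0.52). The medians of the Perk branch (-0.28) and of cytosolic chaperones (-0.47) turned as well. Of the 65 pathway genes 1 was higher and 59 were lower, with a median of -0.66. At most 1 of the rises that TMM called among these 65 genes, such as those of Chac1 and Fkbp11, thus kept its call. With library size scaling 4 of the 10 genes were higher, their median was 0.041, and Creld2 was at 0.059, Herpud1 at 0.023 and Pdia3 at 0.0035. Of the 65 genes 19 were then higher and 14 lower (median 0.027), and the medians of lumenal chaperones (0.023), isomerases (0.029), degradation (0.019) and entry (0.067) were above 0. With the upper quartile the median of the 10 was 0.010, Creld2 was at 0.028, entry at 0.037, and 15 of the 65 were higher. With an absolute log2 fold change above 1, 0 of the 10 were higher and 0 lower.

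Over the 6 fits that each left out 1 sample, Pdia4 ranged from -0.010 to 0.044, Creld2 from -0.10 to 0.0073 and the median of the entry list from -0.042 to 0.030. Samples with the same replicate number did not deviate together (r from -0.10 to -0.0040 for the 3 pairs), and no sample correlated best with its own number. With the replicate number as a block, 2 of the 10 genes were higher and 3 lower, and Pdia3 and Atf6b were not called.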
